A study of Mus musculus with 10 samples.

Results

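Membrane mucins are glycoproteins that span the apical membrane of epithelial cells and carry a long, densely O-glycosylated outer domain, and in the gut they form the glycocalyx that covers the microvilli. Beneath it, the cadherin-family proteins Cdhr2 and Cdhr5 pair across neighbouring microvillar tips and, through a cytoplasmic complex, pack the microvilli into a brush border. Villin (Vil1) bundles, caps and severs the actin filaments at the core of each microvillus. The genes described here are the membrane mucins Muc1, Muc3, Muc4, Muc13 and Muc20, the cadherins Cdhr2 and Cdhr5, and Vil1. They were chosen by name, and every row of the 10 tables that carries one of these 8 symbols was taken. Of the 8 genes, 7 had such a row, and all 7 were listed in all 10 libraries, out of 19456 genes listed in at least 1 library and 14600 listed in every library. Muc3 was not analysed here, since neither its symbol nor its gene identifier was among the rows used.

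The libraries were made from polyadenylated RNA of intestinal tissue of C57BL/6 mice. They came from transgenic mice that overexpress ITGB6 (TG), the integrin beta subunit of the epithelial receptor alpha-v beta-6, and from wild-type mice (WT). There were 2 libraries of TG mice and 2 of WT mice given 2.5% dextran sulfate sodium by mouth (DSS, a sulfated polysaccharide that injures the colonic epithelium), and 3 libraries of untreated TG mice and 3 of untreated WT mice. The labels do not state the promoter of the transgene, the gut segment, the age or the sex, nor whether libraries of a group came from separate animals, so that p-values measure the spread between these libraries.

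Each library held 15393859 to 18284704 deposited expected counts. Levels are given as CPM, the expected counts per library scaled to library size with edgeR's TMM factors. Human ITGB6 was listed at 2201 to 2453 CPM in TG DSS and 0.709 to 1.13 CPM in WT DSS libraries, and at 3632 to 3913 CPM in TG untreated and 0.117 to 0.123 CPM in WT untreated libraries, as the genotypes are labelled. The female transcript Xist was at 307 to 739 CPM in the 4 DSS libraries and at most 0.421 CPM in the 6 untreated libraries, while the Y-linked Kdm5d was at 0 CPM in all 4 DSS libraries and at 26.6 to 44.2 CPM in the untreated ones. DSS and the sex read from these genes therefore cannot be told apart in any DSS comparison below. The epithelial keratin Krt8 stood at 5432 to 8801 CPM, and 6 colonocyte markers summed to 4820 to 13343 CPM, against 183 to 442 CPM for 6 small intestinal enterocyte markers. The first TG untreated library stood apart, with a Spearman correlation of 0.973 and 0.975 to the other libraries of its group, which correlated at 0.993 with each other. Over the 10 libraries, 8 pan-epithelial markers summed to 14400 to 19990 CPM and 6 fibroblast markers to 20.4 to 118 CPM. The sums were 6.55 to 9.81 CPM for 6 smooth muscle markers and 1.08 to 4.78 CPM for 4 endothelial markers. How much tissue other than epithelium the libraries held was not tested. In bulk tissue, fewer epithelial cells and less RNA per cell cannot be told apart.

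The start regions of the mucins that differed between groups and of Cdhr5 and Vil1, as given by RefSeq for GRCm38.p6, are printed first because they show which short motifs the genes share and do not share. All 8 genes matched the RefSeq promoter table, with 9 start regions in all, each reaching from 250 bases before to 50 bases after a start, and Muc13 having a pair of starts. Sequences run 5′ to 3′ on the strand of the gene, and capitals mark the motif matches. They cover chr16:33794239-33794538 for the second Muc13 start, chr3:89228806-89229105 for Muc1, chr16:32735636-32735935 for Muc4, chr7:141276737-141277036 for Cdhr5 and chr1:74409134-74409433 for Vil1. Cdhr5 is on the minus strand and the others on the plus strand.
Muc13: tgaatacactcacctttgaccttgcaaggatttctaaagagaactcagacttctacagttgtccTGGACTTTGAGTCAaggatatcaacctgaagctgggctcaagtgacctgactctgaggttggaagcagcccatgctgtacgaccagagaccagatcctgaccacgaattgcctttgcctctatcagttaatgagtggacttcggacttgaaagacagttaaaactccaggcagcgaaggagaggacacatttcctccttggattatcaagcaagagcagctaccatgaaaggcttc
Muc1: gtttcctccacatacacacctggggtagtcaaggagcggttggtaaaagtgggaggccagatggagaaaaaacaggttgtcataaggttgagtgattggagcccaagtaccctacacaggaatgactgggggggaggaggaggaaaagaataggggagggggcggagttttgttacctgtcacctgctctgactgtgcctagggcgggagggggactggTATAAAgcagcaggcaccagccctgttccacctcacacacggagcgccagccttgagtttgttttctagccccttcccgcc
Muc4: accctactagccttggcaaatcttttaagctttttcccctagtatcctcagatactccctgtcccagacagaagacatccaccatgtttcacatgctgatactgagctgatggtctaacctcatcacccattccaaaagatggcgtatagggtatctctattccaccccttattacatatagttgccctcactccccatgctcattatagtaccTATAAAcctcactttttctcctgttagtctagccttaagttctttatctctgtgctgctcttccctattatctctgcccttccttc
Cdhr5: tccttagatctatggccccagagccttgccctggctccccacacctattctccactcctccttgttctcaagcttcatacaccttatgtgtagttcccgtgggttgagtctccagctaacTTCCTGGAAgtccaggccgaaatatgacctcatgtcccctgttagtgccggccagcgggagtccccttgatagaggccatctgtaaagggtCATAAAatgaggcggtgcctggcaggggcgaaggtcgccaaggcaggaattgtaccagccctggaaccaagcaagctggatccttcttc
Vil1: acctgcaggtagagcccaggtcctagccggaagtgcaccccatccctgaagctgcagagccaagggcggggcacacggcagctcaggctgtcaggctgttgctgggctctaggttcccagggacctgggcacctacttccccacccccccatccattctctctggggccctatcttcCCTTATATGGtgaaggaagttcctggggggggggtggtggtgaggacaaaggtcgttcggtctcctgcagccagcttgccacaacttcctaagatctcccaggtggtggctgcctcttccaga

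The motifs were searched on both strands, and shares are over the 32851 start regions of the RefSeq table. The core CAAAGNNCA of HNF4, a nuclear receptor of enterocytes, was found in 6.36% of all regions and occurred at the second Muc13 start and in Muc3. The Muc13 match overlaps a match to the AP-1 core TGANTCA, which 7.81% of regions and both Muc13 starts held. Muc1 and Muc4 each had the TATA box letters TATAAA, present in 13.6% of regions, 31 to 26 and 36 to 31 bases before the start. Vil1 had a CArG box, the element bound by serum response factor, 73 to 64 bases before its start, and 1.63% of regions held one. The CDX core TTTATG (11.9% of regions) was found in Cdhr5, 39 to 34 bases before its start, and at the first Muc13 start, and the STAT core TTCNNNGAA (8.30%) in Muc3, Cdhr5 and at the first Muc13 start. Cdhr2 and Muc20 held none of the 6 motifs. A match describes letters only, and binding was not measured.

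Levels of different genes were compared on the deposited FPKM scale, which is per gene length. Muc13 was the most abundant of the 7 genes, with a median of 614 FPKM (526 to 1512 over the 10 libraries). Cdhr5 followed at 381 FPKM (247 to 455), Vil1 at 319 FPKM (268 to 357) and Cdhr2 at 171 FPKM (111 to 186). The other measured membrane mucins were far below these, Muc3 having no row. Muc4 was at 18.8 FPKM (12.2 to 23.7), Muc1 at 2.87 FPKM (1.74 to 14.5) and Muc20 at 0.395 FPKM (0.160 to 0.860). Neighbours in this order did not overlap in any group, except Cdhr5 and Vil1, which overlapped in WT DSS and TG untreated libraries. Muc13 made up 96.0 to 98.1% of the summed FPKM of the 4 measured membrane mucins in every library. Across the libraries the coefficient of variation of the CPM was lowest for Vil1, at 9.24%, and highest for Muc1, at 83.1%.

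**Figure D1:**
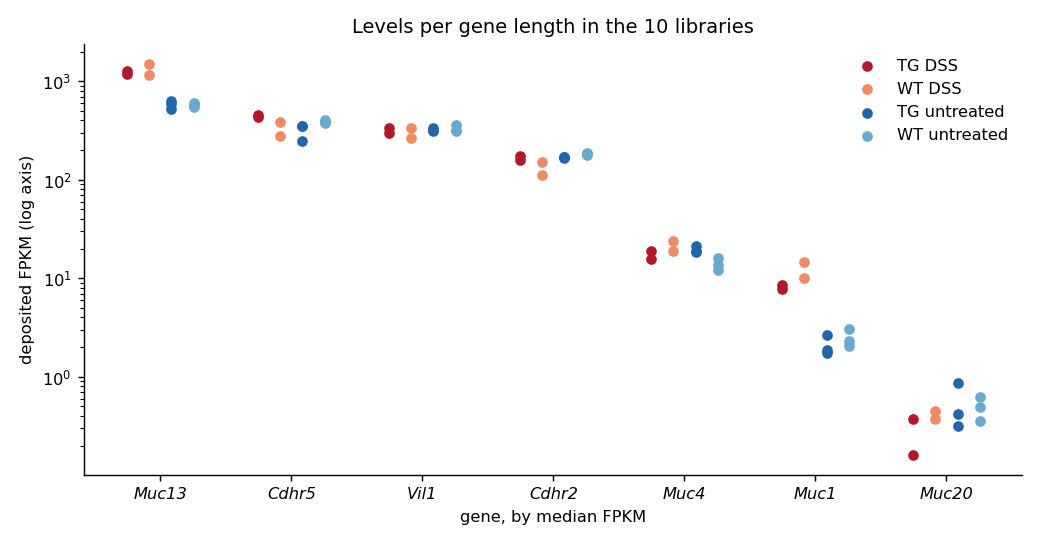
Deposited FPKM (log axis) of the 7 measured genes in the 10 libraries, 1 point per library, ordered by median and coloured by group. Muc13 lies above the other genes in every library, and the DSS libraries of Muc13 and Muc1 lie above the untreated ones.

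The main comparison asks how these genes differed between DSS-treated and untreated mice of each genotype. In WT mice Muc1, Muc13 and Muc4 rose, and in TG mice Muc1 and Muc13 rose. No gene of the 7 fell in either genotype by edgeR's quasi-likelihood test with Benjamini-Hochberg adjusted p under 0.05 over 14072 genes. The 3 rises among 7 genes in WT stand beside 10.2% of all genes higher and 9.62% lower in that comparison, and the 2 rises in TG beside 3.33% higher and 2.15% lower. At an unadjusted p under 0.05 there were 4 of 7 genes in WT, beside 4733 of all 14072 genes. In TG there were 3 of 7, beside 2826 of the 14072. DESeq2 called 3 of the 7 in WT and 2 in TG. The median log2 fold change over the 7 genes was -0.07 in WT, against 0.00 for all genes, and 0.05 in TG, against 0.01 for all genes.

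Muc13 (gene 17063, chr16:33794037-33819929, plus strand) was the most abundant of the measured membrane mucins. It was at 3925 and 3795 CPM in TG DSS libraries, against 1623, 1719 and 1927 CPM in TG untreated libraries. It was at 4636 and 3375 CPM in WT DSS libraries, against 1723, 1556 and 1635 CPM in WT untreated libraries. All 4 DSS libraries were above all 6 untreated ones, and the WT DSS pair spread more than any other group. The log2 fold change for DSS was 1.14 in TG (SE 0.15, 2.2-fold, edgeR adjusted p = 0.00215) and 1.29 in WT (SE 0.15, 2.45-fold, adjusted p = 5.19e-04). The difference between the genotypes' log2 fold changes was -0.15, with a 95% interval of -0.63 to 0.32. Part of the Muc13 exons, 184 bases, overlaps the antisense gene Gm15657, and whether reads were counted by strand is not given in the sources used here.

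Muc1 (gene 17829, chr3:89229056-89233381, plus strand), a membrane mucin whose cytoplasmic tail takes part in signalling, was at a much lower level. It had 20 and 18.7 CPM in TG DSS libraries, against 6.14, 3.84 and 4.28 CPM in TG untreated libraries. It had 33.4 and 21.7 CPM in WT DSS libraries, against 6.69, 4.94 and 4.37 CPM in WT untreated libraries. Here too every DSS library was above every untreated one. The log2 fold change for DSS was 2.02 in TG (SE 0.26, 4.07-fold, edgeR adjusted p = 0.00185) and 2.37 in WT (SE 0.26, 5.16-fold, adjusted p = 3.44e-04). The genotypes' changes differed by -0.34 on the log2 scale, with a 95% interval of -1.16 to 0.47. Without the first TG untreated library, the changes in TG were 2.25 for Muc1 (adjusted p = 8.32e-04) and 1.08 for Muc13 (adjusted p = 0.00387).

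Because both mucins rose, their proportion could still differ between groups. The count of Muc13 was 196 and 203 times that of Muc1 in TG DSS libraries, 139 and 155 times in WT DSS libraries, 264, 448 and 450 times in TG untreated libraries and 258, 315 and 374 times in WT untreated libraries. The ratio was lower in all 4 DSS libraries than in all 6 untreated ones. Set against Vil1 of the same library, a measure that needs no scaling between libraries, Muc13 had 3338 to 4341 counts in DSS and 1450 to 1889 in untreated libraries for every 1000 counts of Vil1. Muc1 had 16.4 to 31.3 in DSS and 4.0 to 6.88 in untreated libraries on the same measure. The mean log2 ratio was higher in DSS libraries by 1.22 for Muc13 and by 2.23 for Muc1. For each the exact two-sided permutation test over 4 DSS and 6 untreated libraries gave an unadjusted p = 0.00952, the smallest this design can give. With 5 genes tested in this way, the Benjamini-Hochberg adjusted p of this test was 0.0238. The ratios to Vil1 of Muc4 (exact p = 0.200), Cdhr5 (exact p = 0.200) and Cdhr2 (exact p = 0.0952) overlapped between DSS and untreated libraries. Within genotypes the mean log2 ratio of Muc4 differed by -0.17 in TG and 0.77 in WT, and that of Cdhr5 by 0.52 in TG and -0.10 in WT, so that the pooled values join opposite directions. This ratio test was added after the data were seen. Muc13 and Muc1 already separated DSS from untreated libraries in CPM, so their ratios are not independent support.

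**Figure D2:**
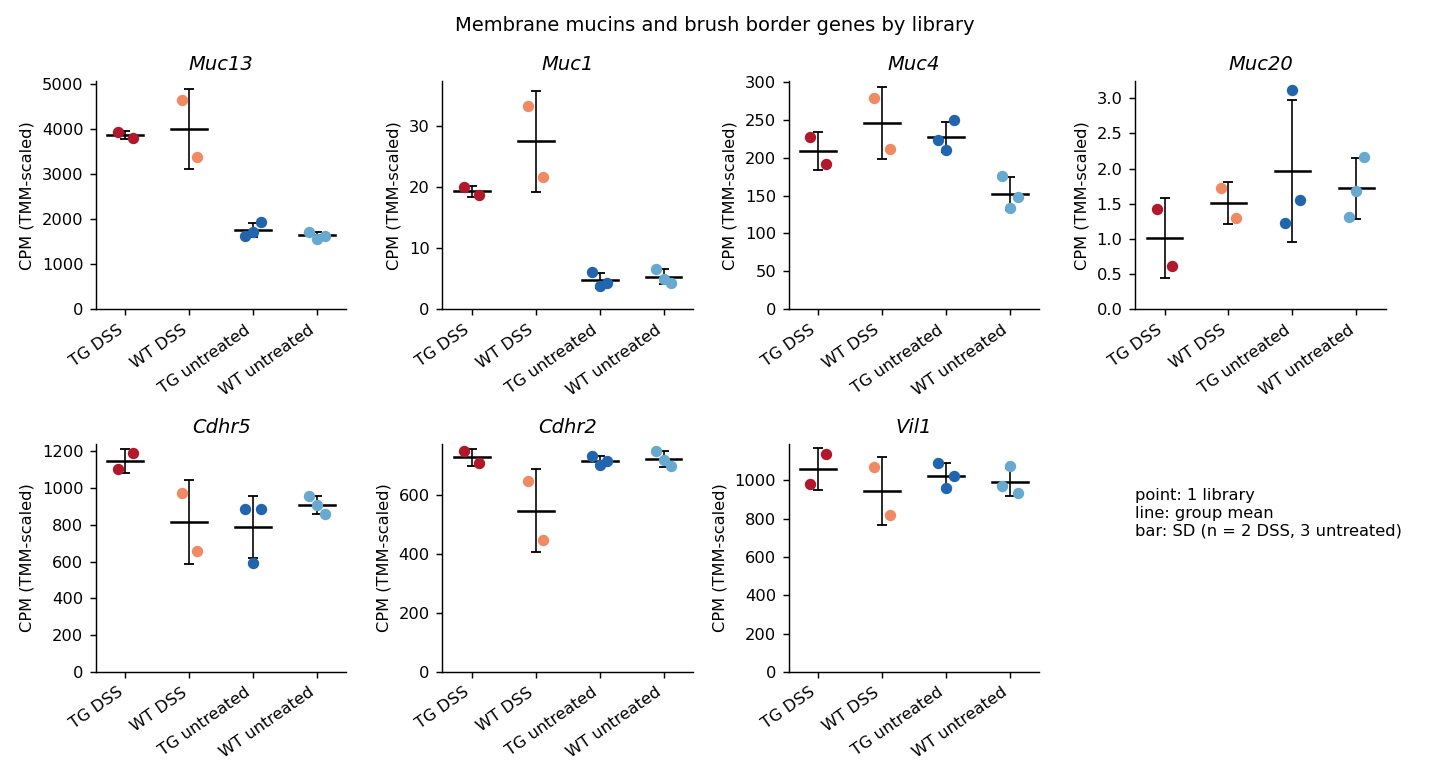
TMM-scaled CPM of each measured gene, 1 point per library, with the group mean as a line and the SD as a bar (2 libraries per DSS group, 3 per untreated group). Muc13 and Muc1 are higher in all DSS libraries than in all untreated ones, Muc4 is lowest in WT untreated libraries, and Vil1 differs little between groups.

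Neutrophil markers moved with the DSS rise of both mucins: their summed level over 5 genes was 24.9 to 28.1 CPM in TG DSS and 30.8 to 35.3 CPM in WT DSS libraries, against 4.83 to 5.68 CPM in TG untreated and 5.58 to 6.14 CPM in WT untreated libraries, with S100a8 at 0 in WT untreated. The 7 leukocyte markers summed to 78.7 to 83.2 CPM in TG DSS, 75.0 to 96.3 CPM in WT DSS, 66.1 to 247 CPM in TG untreated and 194 to 371 CPM in WT untreated libraries. The 8 pan-epithelial markers summed to 14400 to 19249 CPM in DSS and 15738 to 19990 CPM in untreated libraries, ranges that overlap. The part of other cell types in the mucin differences was not tested.

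Muc4 (gene 140474, chr16:32735886-32782391, plus strand), a very large membrane mucin known as a partner of the receptor ErbB2, had a different pattern over the groups. It was at 227 and 191 CPM in TG DSS libraries, against 223, 210 and 249 CPM in TG untreated libraries. It was at 279 and 212 CPM in WT DSS libraries, against 176, 133 and 148 CPM in WT untreated libraries. The WT untreated libraries were the lowest 3 of the 10. Between WT DSS and WT untreated the log2 fold change was 0.69 (SE 0.16, 1.61-fold, edgeR adjusted p = 0.0154), whereas between TG DSS and TG untreated it was -0.12 (SE 0.16, adjusted p = 0.748). The WT call was lost without the first WT DSS library (0.48, adjusted p = 0.0908), the second WT untreated library (adjusted p = 0.0605) or the third (adjusted p = 0.0563).

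The genotype comparison asks what ITGB6 overexpression changed. None of the 7 genes passed in untreated mice, where 2.26% of all genes were higher and 1.44% lower in TG than in WT, nor after DSS, where 0.178% were higher and 0.00711% lower. At an unadjusted p under 0.05 there was 1 gene of 7 in each comparison, Muc4 in untreated mice and Cdhr2 after DSS. Of all 14072 genes, 2919 were under that threshold in untreated mice and 1578 after DSS, so that 1 of 7 is near those shares. DESeq2 called 1 gene in untreated mice, Muc4, and 0 after DSS. The split of all genes in untreated mice, 318 higher and 202 lower, depended on scaling and was 131 higher and 350 lower with libraries scaled to the pan-epithelial markers. After DSS, 25 were higher and 1 lower, against 3 higher and 1 lower with that scaling.

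In untreated mice Muc4 averaged 227 ± 20 CPM in TG and 152 ± 21.7 CPM in WT libraries (SD, n = 3 each), with no overlap. The log2 fold change was 0.58 (SE 0.14, 95% interval 0.26 to 0.90), with an edgeR adjusted p of 0.0571 and a DESeq2 adjusted p of 0.00616. The range of adjusted p over the 21 alternatives was 0.00616 to 0.240, and 3 of them passed. Without the first TG untreated library the log2 fold change was 0.59 (adjusted p = 0.0567). The 6 goblet cell markers summed to 24608 to 29547 CPM in TG untreated and 6023 to 17054 CPM in WT untreated libraries. Of the 6, Agr2 and Spink4 passed as higher in TG, beside 2.26% of all genes. The most abundant of them, Clca1 (log2 1.73) and Fcgbp (1.19), did not pass, nor did Tff3 (0.10) and Zg16 (-0.14). After DSS the same sum was 13934 to 20270 CPM in TG and 7439 to 11771 CPM in WT libraries. Muc4 was not higher in TG there (log2 -0.23). Fibroblast markers were higher in TG in untreated mice too. The 6 markers summed to 39.8 to 118 CPM in TG untreated and 20.4 to 35.9 CPM in WT untreated libraries. Of these 6, Col1a1, Col1a2 and Col3a1 passed as higher in TG, beside the same 2.26% of all genes. Dcn (log2 0.86), Lum (1.75) and Pdgfra (1.23) did not pass. The part of goblet cells and fibroblasts in the Muc4 values was not tested.

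The genotype by DSS interaction, the test of whether the DSS change differed between TG and WT, passed for none of the 7 genes in edgeR, beside 0.526% of all genes with a higher and 0.320% with a lower DSS change in TG. The p-value was under 0.05 before adjustment for Muc4 and Cdhr5, beside 1703 of all 14072 genes. DESeq2 called 1 gene, Muc4. For Muc4 the difference was -0.81 on the log2 scale (SE 0.23, 95% interval -1.32 to -0.30), with an edgeR adjusted p of 0.160 and a DESeq2 adjusted p of 0.0370. For Cdhr5 it was 0.70 (SE 0.29, 95% interval 0.06 to 1.33, edgeR adjusted p = 0.367).

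**Figure D3:**
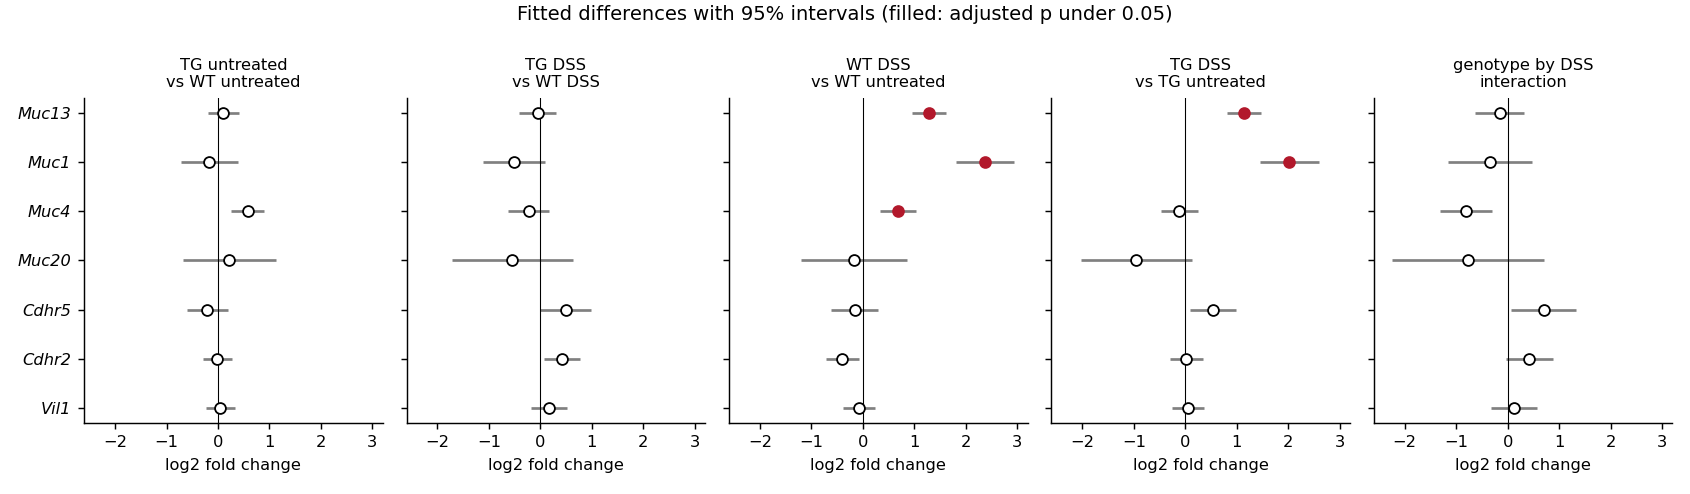
Log2 fold change with its 95% interval for the 7 measured genes (rows) in the 5 comparisons (panels), from the edgeR fit, with filled points at adjusted p under 0.05. The filled points are Muc13 and Muc1 for DSS in both genotypes and Muc4 for DSS in WT.

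Muc20 (gene 224116, chr16:32777419-32797435, minus strand), a small membrane mucin reported to bind the receptor Met, was barely detected. It had 1.42 and 0.618 CPM in TG DSS, 1.72 and 1.30 CPM in WT DSS, 1.23, 3.11 and 1.56 CPM in TG untreated and 1.31, 1.68 and 2.17 CPM in WT untreated libraries. The groups overlapped in every comparison, and the largest fitted difference, -0.95 for DSS in TG, had a 95% interval of -2.02 to 0.13. Its counts are uncertain because it ends inside Muc4: the genes lie on opposite strands, overlap over 4973 bases (chr16:32777419-32782391) and share 381 exonic bases. The expected count of Muc20, 10.56 to 52.64 per library, was not whole in any of the 10 libraries, but Muc4 and Muc20 added to a whole number within 0.02 in all 10. Muc20 held 0.322 to 1.46% of the pair's sum. With both counted as 1 gene, the log2 fold change for DSS was 0.68 in WT (adjusted p = 0.0155) and -0.13 in TG (adjusted p = 0.733), close to Muc4 alone.

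The brush border cadherins did not pass in any comparison. Cdhr5 (gene 72040, chr7:141269080-141276795, minus strand), the cadherin with a mucin-like domain, was at 1100 and 1190 CPM in TG DSS, against 884, 591 and 885 CPM in TG untreated libraries. It was at 974 and 655 CPM in WT DSS, against 954, 909 and 860 CPM in WT untreated libraries. The TG DSS libraries were the highest of the 10. The log2 fold change for DSS was 0.54 in TG (SE 0.20, 95% interval 0.10 to 0.99, edgeR adjusted p = 0.159) and -0.16 in WT (SE 0.20, 95% interval -0.61 to 0.30, adjusted p = 0.639).

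Cdhr2 (gene 268663, chr13:54701463-54736662, plus strand), its partner across the microvillar gap, was at 749 and 708 CPM in TG DSS, against 733, 703 and 717 CPM in TG untreated libraries. It was at 648 and 448 CPM in WT DSS, against 751, 721 and 698 CPM in WT untreated libraries. The WT DSS libraries were the lowest of the 10, while the TG DSS libraries lay near the untreated ones. The log2 fold change for DSS was 0.02 in TG (95% interval -0.30 to 0.34) and -0.40 in WT (SE 0.15, 95% interval -0.72 to -0.08, edgeR adjusted p = 0.0818). Between TG DSS and WT DSS it was 0.41 (SE 0.16, 95% interval 0.06 to 0.76, adjusted p = 0.363). These values turn on either WT DSS library. Without the first, Cdhr2 had a log2 fold change of -0.69 for DSS in WT. It was then 0.70 for TG DSS against WT DSS and 0.71 for the interaction. Without the second, the same values were -0.16, 0.17 and 0.18. All 7 genes were higher in the first than in the second WT DSS library, whose pan-epithelial markers summed to 17921 and 14400 CPM.

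Vil1 (gene 22349, chr1:74409384-74435560, plus strand) was the steadiest of the 7. It was at 980 and 1137 CPM in TG DSS, 1068 and 818 CPM in WT DSS, 1089, 959 and 1020 CPM in TG untreated and 972, 1073 and 931 CPM in WT untreated libraries. The groups overlapped in every comparison. The log2 fold change for DSS was 0.05 in TG (95% interval -0.26 to 0.36) and -0.07 in WT (95% interval -0.39 to 0.24). Between genotypes it was 0.17 after DSS (95% interval -0.18 to 0.51) and 0.04 in untreated mice (95% interval -0.24 to 0.33), the last becoming -0.11 with pan-epithelial scaling.

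Over the 10 libraries, Muc1 and Muc13 were the most alike of the 21 pairs (Pearson r = 0.96 on log2 CPM), a correlation that the shared DSS difference enters. Cdhr2 and Vil1 reached 0.68, Cdhr5 and Vil1 0.65, and Cdhr2 and Cdhr5 0.51, while Muc20 and Cdhr5 reached -0.67. The genes most like each member were, by the same measure, Pak1 (0.98) and Piezo1 (0.98) for Muc1, and Mmp10, Mmp13 and Rrbp1 (0.99 each) for Muc13. Mmp10 and Mmp13, secreted matrix proteases, were at 0 CPM in some libraries and at no more than 5.11 and 6.97 CPM in any. Muc4 was most like Gsdmcl-ps (0.95), Eaf1 (0.93) and Mlph (0.93), Cdhr2 like Adra2a (0.98), Amn (0.97) and Acadvl (0.97), and Cdhr5 like Cideb (0.96), Myh14 (0.96) and Wipf3 (0.95). Vil1 was most like Iah1 (0.93), Krt19 (0.93) and Pvr (0.91), and Muc20 like Styk1 (0.92), Wdr78 (0.89) and Ccnl1 (0.89). These are descriptions of libraries that share their scaling and groups.

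The nearest tested genes on each side of the members mostly did not pass. Between WT DSS and WT untreated, Heg1 before Muc13 was higher by 1.45 (adjusted p = 0.0105), Krtcap2 after Muc1 by 0.51 (adjusted p = 0.0150) and Irf7 before Cdhr5 by 0.97 (adjusted p = 0.0215). Deaf1 after Cdhr5 was lower (-0.49, adjusted p = 0.0319). With 10.2% of all genes higher and 9.62% lower in that comparison, a few such neighbours are near those shares. Between TG DSS and TG untreated none of these neighbours passed.

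The partners of the cadherins and the rest of the brush border were followed through lists. The intermicrovillar adhesion complex links Cdhr2 and Cdhr5 to actin through the scaffolds Ush1c and Anks4b, the motor Myo7b and the light chain Calml4. Of these 4, Myo7b fell with DSS in WT (log2 -0.59, SE 0.14, edgeR adjusted p = 0.0160). It averaged 246 ± 23.6 CPM in WT DSS (n = 2) and 371 ± 13.9 CPM in WT untreated libraries (n = 3). None of the 4 passed with DSS in TG. Over all genes 9.62% were lower with DSS in WT and 2.15% in TG, and 1 gene of 4 does not set the list apart from that share. Without the first WT DSS library 3 of the 4 fell in WT, and without the second 0 passed. Ush1c had a log2 fold change for DSS of 0.14 in TG and -0.25 in WT, Anks4b of -0.12 and -0.30, and Calml4 of -0.03 and -0.18.

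Among 21 genes of the microvillar core and terminal web, 7 fell and 0 rose with DSS in WT, with a median of -0.35, against 9.62% of all genes lower and a median of 0.00. In TG 0 of 21 passed, with a median of 0.04 against 0.01. The 7 were Cobl, an actin nucleator, Espn, an actin bundler, Slc9a3r1, the ezrin-binding scaffold also called NHERF1, Eps8l2 and Eps8l3, relatives of the capping protein Eps8, Baiap2l2, a membrane-bending protein, and Pdzd3, a scaffold. Cobl averaged 46.5 ± 3.75 CPM in WT DSS and 126 ± 7.66 CPM in WT untreated libraries (log2 -1.44, adjusted p = 2.66e-04), and Espn 34.1 ± 5.95 and 84.1 ± 8.82 CPM (log2 -1.30, adjusted p = 9.25e-04). Slc9a3r1 (-0.91, adjusted p = 0.00168) and Eps8l2 (-0.85, adjusted p = 0.00193) followed. The actin bundler Pls1 (0.12), the membrane linker ezrin, Ezr (-0.25), and the motor Myo1a (-0.39) did not pass. In untreated mice Cobl was also lower in TG than in WT (-0.73, adjusted p = 0.0170), 1 of the 21 beside 1.44% of all genes. That call was lost without any 1 of the WT untreated libraries. Leaving out each library in turn, 4 to 9 of the 21 passed for DSS in WT, fewest without the second WT DSS or the second WT untreated library, and 0 to 2 for DSS in TG.

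Brush border hydrolases, the digestive enzymes that the glycocalyx surrounds, had 5 falls and 1 rise among 13 tested genes with DSS in WT (median -0.85), and 1 rise and 0 falls in TG (median 0.01). Over all genes 9.62% were lower and 10.2% higher in WT (median 0.00), and 3.33% higher in TG (median 0.01), so that a single rise in 13 is near the share over all genes. The aminopeptidase Enpep (-1.97, adjusted p = 0.00320), the peptidase Naaladl1 (-1.83, adjusted p = 2.57e-04), Anpep (-1.51, adjusted p = 0.0390), the meprin subunit Mep1a (-1.31, adjusted p = 0.00163) and the phosphatase Alpi (-0.85, adjusted p = 0.0447) fell, and the disaccharidase Mgam rose (0.71, adjusted p = 0.00410). In TG the glutathione hydrolase Ggt1 rose (18.6 ± 2.31 CPM in TG DSS and 3.75 ± 0.163 CPM in TG untreated, log2 2.31, adjusted p = 0.00138). Enpep (-1.48, adjusted p = 0.0191) and Naaladl1 (-0.99, adjusted p = 0.0130) were also lower in TG untreated than in WT untreated libraries. They were 2 of 13, beside 1.44% of all genes lower. Both calls were lost without the second or the third WT untreated library. Colonocyte markers moved with both lists in WT: their sum was 4820 to 7679 CPM in WT DSS and 11108 to 13343 CPM in WT untreated libraries, with 5 of 6 lower. In TG the sum was 9605 to 11811 CPM with DSS and 7142 to 11307 CPM without. Their part in these counts was not tested. Leaving out each library in turn, 4 to 7 hydrolases passed for DSS in WT and 1 to 2 in TG.

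**Figure D4:**
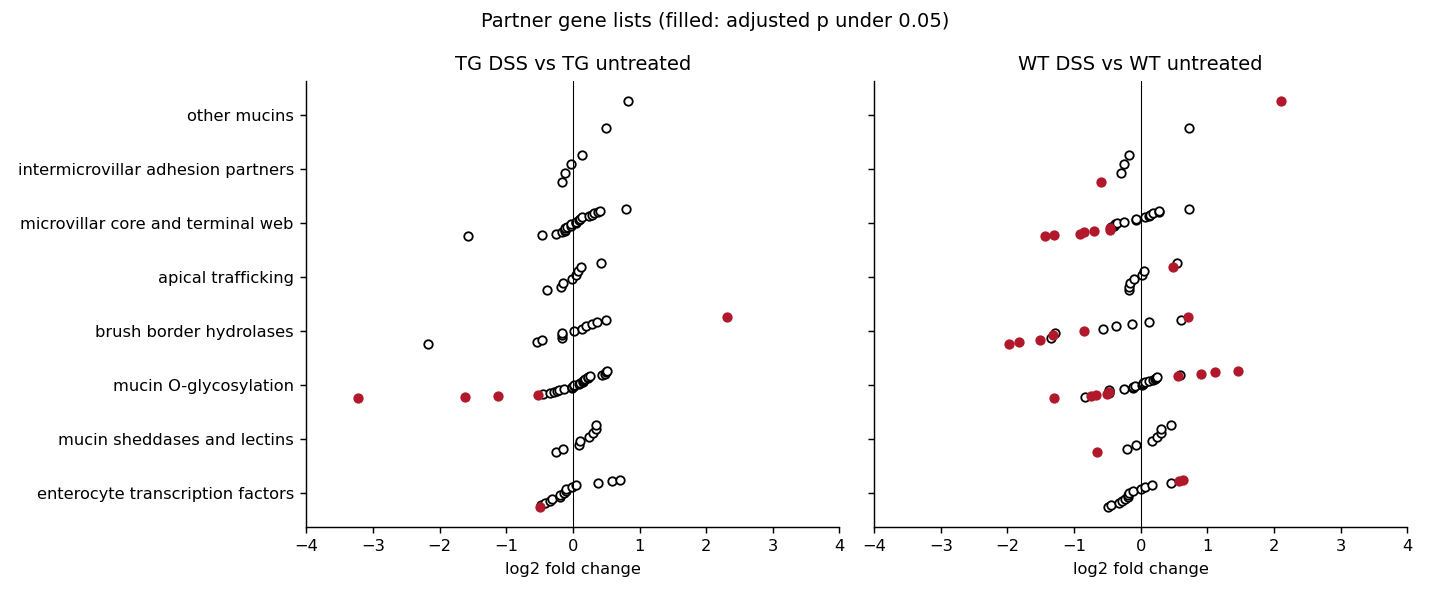
Log2 fold change for DSS of each tested gene in 8 lists of partner genes, in TG (left) and WT (right), with filled points at edgeR adjusted p under 0.05. In WT the filled points of the microvillar core lie below 0, and in TG that list has none.

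The enzymes that build the O-glycans of mucins changed in both directions. Of 27, 4 rose and 5 fell with DSS in WT, and 0 rose and 4 fell in TG. All genes had 10.2% higher and 9.62% lower in WT and 3.33% higher and 2.15% lower in TG, and the medians of the 27 were 0.02 and 0.01, against 0.00 and 0.01 over all genes. In WT the fucosyltransferase Fut2 (433 ± 105 CPM in WT DSS and 157 ± 19.2 CPM in WT untreated, log2 1.46, adjusted p = 4.59e-04), the initiating transferase Galnt3 (1.11, adjusted p = 0.00596), the sulfotransferase Chst4 (0.90, adjusted p = 0.00850) and B3gnt3 (0.56, adjusted p = 0.0247) rose. The sialyltransferase St3gal4 fell in TG (144 ± 35 CPM in TG DSS and 444 ± 57.6 CPM in TG untreated, log2 -1.62, adjusted p = 0.00132) and in WT (229 ± 22.6 CPM in WT DSS and 566 ± 89.8 CPM in WT untreated, log2 -1.30, adjusted p = 0.00203). The sialyltransferases St3gal6 (-1.12, adjusted p = 0.00127), St6galnac2 (-0.53, adjusted p = 0.0378) and the barely detected St6galnac1 (-3.22, adjusted p = 0.0285) also fell in TG. These calls held in 20 of 20 alternatives for St3gal6, 11 of 20 for St6galnac2 and 13 of 17 for St6galnac1. In untreated mice 3 of the 27 were higher in TG than in WT, beside 2.26% of all genes higher and 1.44% lower. They were Fut2 (307 ± 35.4 CPM in TG and 157 ± 19.2 CPM in WT, log2 0.96, adjusted p = 0.0124), Chst4 (0.91, adjusted p = 0.0188) and Galnt12 (0.53, adjusted p = 0.0425). The Galnt12 call held in 6 of 20 alternatives, against 18 for Fut2 and 17 for Chst4. None of the 27 passed in untreated mice without the second or the third WT untreated library, and 6 passed without the first TG untreated one. For DSS, 4 to 11 passed in WT and 2 to 6 in TG with each library left out in turn, the lowest WT count being without the second WT DSS library and the highest without the first TG untreated one.

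Of 11 other mucins, 5 had a row and 2 passed the filter on low counts. The secreted mucin Muc2 was at 12869 ± 355 CPM in TG DSS, 8098 ± 2781 CPM in WT DSS, 7293 ± 3303 CPM in TG untreated and 4908 ± 1892 CPM in WT untreated libraries, and passed in no comparison. Muc6, a gastric-type mucin, was at 1.58 ± 0.938 CPM in WT DSS and 0.360 ± 0.106 CPM in WT untreated libraries (log2 2.11, adjusted p = 0.0222), a call lost in 5 of 17 alternatives. Of 8 genes for sheddases and lectins, the galectin Lgals3 fell with DSS in WT (-0.65, adjusted p = 0.00756) and none passed in TG, 1 of 8 being near the 9.62% of all genes that were lower in WT. Of 8 genes of apical trafficking, Rab11a, a small GTPase of recycling endosomes, rose with DSS in WT (0.48, adjusted p = 0.0396), which held in 7 of 20 alternatives, and none passed in TG. With 10.2% of all genes higher in WT, 1 of 8 is near that share.

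Among 15 transcription factors of the enterocyte, 2 rose and 0 fell with DSS in WT, where 10.2% of all genes were higher and 9.62% lower, and 0 rose and 1 fell in TG, where 3.33% were higher and 2.15% lower. Counts this small are near those shares, and the list medians were -0.18 in WT and -0.13 in TG. The epithelial factor Elf3 (0.64, adjusted p = 0.0160) and Stat3 (0.58, adjusted p = 0.0212) rose in WT, and Srf, the factor that binds CArG boxes, fell in TG (-0.49, adjusted p = 0.0382). These calls held in 17, 15 and 10 of 20 alternatives for Elf3, Stat3 and Srf. Hnf4a was at 973 ± 23.0 CPM in TG DSS, 968 ± 46.7 CPM in WT DSS, 1117 ± 65.7 CPM in TG untreated and 1049 ± 61.5 CPM in WT untreated libraries and passed in no comparison, nor did Cdx2.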

How the data were processed

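Per the file headers, the authors deposited a table of expected counts and FPKM for each library. RSEM 1.2.12, HISAT2 2.0.4, Bowtie2 2.2.5 and mm10 are named, without roles, in the submitters' processing notes. The deposited expected counts are RSEM's estimates, which can split reads between overlapping genes, and strand handling is not given in the sources used here. The deposited FPKM values are per gene length and library size, and genes below 0.01 FPKM are unlisted and were set to 0.

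Expected counts were rounded and TMM-scaled, and genes were kept by filterByExpr (count minimum 10, total minimum 15), which left 14072. All 10 libraries entered a single edgeR quasi-likelihood fit (edgeR 4.0.16, R 4.3.3) that gave each of the groups its own mean, with 5 contrasts and Benjamini-Hochberg adjusted p under 0.05 over all genes. SEs are the log2 fold change over the root of F, and 95% intervals use edgeR's total degrees of freedom. The fit was tested on simulated data. Total counts of 15393859 to 18284704 set the counting precision. No libraries of a group were duplicates (chi-square per gene 9.99 to 65.1 over 8 pairs).

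Members and lists were chosen with earlier results of these data known. Named genes are the members, their 3 most similar genes, flanking genes and up to 4 passing genes per list and contrast, and the others named were chosen after their values were seen. Some genes that the rule names are not reported here. Alternatives were DESeq2 1.42.0, other scalings and filters, a replicate block, separate fits per pair of groups, leaving out each library, and limma 3.58.1 on log2 FPKM (genes reaching 1 FPKM in 2 libraries, pseudocount 1 or 0.1). Counting Muc4 and Muc20 as 1 gene was added after the data were seen. Promoters are from RefSeq (GRCm38.p6) and exon overlaps from GENCODE.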

Additional observations from a re-analysis of the deposited data

Results flagged for a closer look

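3 partner genes passed the genotype by DSS interaction in the edgeR fit, the test of whether the DSS change differed between TG and WT. They were 1 of 21 genes of the microvillar core and terminal web and 2 of 13 brush border hydrolases, and the other lists had none. Over all genes 0.526% had a higher and 0.320% a lower DSS change in TG. Enpep had an interaction of 2.33 on the log2 scale (edgeR adjusted p = 0.0406), with 6.30 ± 2.53 CPM in TG DSS, 3.49 ± 0.581 CPM in WT DSS, 4.91 ± 0.979 CPM in TG untreated and 13.7 ± 3.21 CPM in WT untreated libraries. Espn had an interaction of 1.28 (adjusted p = 0.0354), with 70.7 ± 1.5 CPM in TG DSS, 34.1 ± 5.95 CPM in WT DSS, 71.9 ± 11.1 CPM in TG untreated and 84.1 ± 8.82 CPM in WT untreated libraries. Naaladl1 had an interaction of 1.66 (adjusted p = 0.0205), with 31.0 ± 5.95 CPM in TG DSS, 19.4 ± 4.38 CPM in WT DSS, 34.9 ± 4.61 CPM in TG untreated and 69.1 ± 2.23 CPM in WT untreated libraries. For each, the mean was highest in WT untreated and lowest in WT DSS. The libraries of the groups did not overlap at those ends for Naaladl1, whereas WT untreated overlapped TG untreated for Espn and WT DSS overlapped TG untreated for Enpep. They passed in 8 (Enpep), 11 (Espn) and 15 (Naaladl1) of 19 alternatives, with adjusted p of at most 0.188, 0.161 and 0.0951.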

How the results depend on the processing

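Muc1 and Muc13 rose with DSS in all 20 alternatives in both genotypes, at 1.58 to 2.25 (Muc1) and 1.08 to 1.21 (Muc13) in TG and 1.92 to 2.64 and 1.05 to 1.5 in WT. Of the alternatives' values for the 35 member fold changes, 650 kept direction and side of the threshold, 10 newly passed, 3 lost the call and 25 changed sign. The cause was not tested. Cdhr2 fell with DSS in WT under total count scaling (adjusted p = 0.0314) and in limma on log2 FPKM, with pseudocount 1 (0.0315) and 0.1 (0.0403). Signs changed for small differences. For TG against WT untreated, Vil1 was -0.04 with total count scaling, -0.11 with pan-epithelial scaling and -0.04 in both FPKM fits, and Muc13 was -0.05 with pan-epithelial scaling. For DSS in TG, Cdhr2 was -0.04 and Vil1 -0.01 with total count scaling and in both FPKM fits. Pan-epithelial scaling shifted the median of all genes to -0.17 (untreated) and -0.18 (DSS) in the genotype comparisons, and total count scaling to -0.10 and -0.09. Genes higher and lower in TG than WT untreated were 235 and 381 with total count scaling and 209 and 359 on log2(FPKM + 1). For DSS they were 1147 and 1699 in WT and 413 and 402 in TG with total count scaling, and 942 and 1571 in WT on log2(FPKM + 1), against 1434 and 1354 in WT and 468 and 303 in TG with TMM.

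DESeq2 called 1 member in untreated TG against WT and 1 in the interaction. Over all genes DESeq2 called 1052 for TG against WT untreated (edgeR 520), 255 after DSS (edgeR 26), 1203 for DSS in TG (edgeR 771) and 426 for the interaction (edgeR 119). After DSS the genotype count was 7 with total count scaling, 4 with pan-epithelial scaling, 10 and 13 on log2 FPKM with pseudocounts of 1 and 0.1, and 8 with only the groups compared, which gave 395 for DSS in TG. Deviations from the group mean correlated at -0.29 to 0.21 between libraries with the same replicate number, with 2 of 13 such pairs over 0.1. In groups of 2 libraries these deviations mirror each other, so that both pairs over 0.1 hold the same value. Whether replicate numbers pair the libraries therefore cannot be settled. With the replicate block the counts were 166 and 7 for genotype untreated and after DSS, 1614 (edgeR without it 2788) and 356 for DSS in WT and TG, and 41 for the interaction.

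Leaving out each library in turn, members passing ranged from 0 to 1 for TG against WT untreated, after DSS and for the interaction. All genes passing ranged from 58 to 730, 4 to 145, 970 to 4112 (DSS in WT), 173 to 1677 (DSS in TG) and 24 to 424. For TG against WT untreated, Muc1 ranged from -0.39 to 0.01, Muc20 from -0.30 to 0.46 and Vil1 from -0.02 to 0.08. After DSS, Muc13 ranged from -0.26 to 0.19 and Vil1 from -0.01 to 0.37. For DSS in WT, Muc20 ranged from -0.39 to 0.01, Cdhr5 from -0.47 to 0.10 and Vil1 from -0.28 to 0.10. For DSS in TG, Cdhr2 ranged from -0.02 to 0.06 and Vil1 from -0.06 to 0.15. For the interaction, Muc13 ranged from -0.37 to 0.09 and Vil1 from -0.06 to 0.32. Where a fit left 1 library in a DSS group, that library was assumed to vary like the other groups. With 2 libraries per DSS group, small differences were not detectable.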

Other observations

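Muc4 gained the untreated genotype call without the first (adjusted p = 0.0389) or second (adjusted p = 0.0382) WT DSS library, although neither belongs to that comparison: all groups share 1 estimate of the spread in the edgeR fit.

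The 8 lists of partner genes and 5 comparisons gave 40 counts of passing genes, each taken again under the alternatives. Of the resulting values, 125 moved by more than 1.5 times and 667 by less. Erythrocyte markers, 5 genes, summed to 61.7 to 203 CPM in TG DSS, 9.45 to 12.6 CPM in WT DSS, 382 to 626 CPM in TG untreated and 174 to 310 CPM in WT untreated libraries.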
